A study of Mus musculus and Homo sapiens with 14 samples.

Results

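The genes described here are 34 symbols of the p53 response: the tumour suppressor gene Trp53, genes that its protein p53 is reported to switch on, and the genes that hold p53 in check. They were taken by symbol from the count tables of mouse EL4 tumours and of cultured EG7-OVA cells. Of the 34 symbols, 33 had a row in each table, against 50559 entries in all in the EL4 table and 55969 in the EG7 table, and Tap53 was not matched. All 33 passed the filter on low counts and were tested in every comparison. They were grouped by role into 9 genes of arrest and growth control, 13 of cell death, 5 of DNA repair, and 6 of feedback including Trp53 itself.

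RNA was sequenced from 10 libraries used here, 2 in each of 5 groups. EG7-OVA is a mouse T cell lymphoma line derived from EL4 that carries an ovalbumin gene, and its cells were given azacytidine at 1.5 µM, decitabine at 0.2 µM or the solvent DMSO at 0, 24 and 48 h and harvested at 72 h. EL4 is a mouse T cell lymphoma line, and its tumours are labelled P3 or P0, with no further word on what these stand for, on the host animals or on any treatment. The labels give the genotype WT for all 5 groups. Nothing in the labels ties a replicate to its own culture or animal, so p-values measure the spread between these libraries, which may be technical. The series title concerns DNA methyltransferase inhibitors given before PD-1 blockade in lymphoma.

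As background, p53 is a transcription factor that Mdm2 and Mdm4 hold low in unstressed cells by tagging it for breakdown and masking its activating surface. Damaged or stalled DNA releases it, and it then binds response elements near its target genes, which stop the cell cycle, repair DNA, feed back on p53 or start apoptosis. Lymphocytes are known for a strong apoptotic arm of this response. Azacytidine and decitabine are cytosine analogues that enter nucleic acid and trap DNA methyltransferases. That lowers DNA methylation and also leaves protein bound to DNA.

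Total counts ran from 15690747 to 21048979 in the EG7 libraries and from 21621580 to 25328708 in the EL4 libraries. Levels are counts scaled to library size (CPM, after TMM scaling). Differences are log2 fold changes, each with the SE of the edgeR fit, and were called at an adjusted p under 0.05 (n = 2 libraries in each group). The T cell gene Cd3e stood at 150 to 226 CPM in all EG7 libraries and 172 to 207 CPM in all EL4 libraries. In EG7 cells the neutrophil gene S100a8 was at 0 in all 6 libraries. Summed over 20 genes, macrophage markers gave 60.6 and 64.2 CPM with azacytidine, 87.7 and 84.2 CPM with decitabine, and 40.9 and 40.9 CPM with DMSO, with a read for 10 to 15 of the 20. The macrophage gene Adgre1 had 2.16 and 0.536 CPM with azacytidine, 5.1 and 0.656 CPM with decitabine, and 0 and 0.0498 CPM with DMSO. Fibroblast markers, of which 6 to 10 of 12 had a read, summed to 790 and 631 CPM with azacytidine, 722 and 776 CPM with decitabine, and 559 and 547 CPM with DMSO. Most of each fibroblast sum was Thy1, a gene that T cells also express, at 615 and 536 CPM with azacytidine, 532 and 622 CPM with decitabine, and 464 and 429 CPM with DMSO. Small RNA took 0.73% and 0.659% of counts with azacytidine, 0.463% and 0.589% with decitabine, and 0.329% and 0.34% with DMSO, and mitochondrial genes took 2.61% in decitabine replicate 1 against 0.969% to 1.21% in the other 5 libraries. The part of these shares and of these markers in the results below was not tested.

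With both drugs RNA from much of the p53 set was higher than with DMSO, though of the 5 repair genes only 1 was called higher with azacytidine. Relative to DMSO, 18 of 33 members were higher and 1 was lower with azacytidine, and 20 were higher with decitabine. Over all 19123 genes tested, the share higher was 13.6% with azacytidine and 12.4% with decitabine, and the share lower was 6.7% with azacytidine and 4.3% with decitabine. The median log2 fold change of the members was 0.71 with azacytidine and 0.88 with decitabine, beside 0.0331 and 0.0361 over all genes tested. With decitabine 0 members were lower by edgeR, 0 at an unadjusted p under 0.05 and 0 by DESeq2. The comparisons with DMSO use the same 2 DMSO libraries, so their results are not independent of each other, and the doses of the drugs differ. Drug and DMSO libraries did not overlap in 27 of 33 members with azacytidine and 25 with decitabine, called or not. The share of all genes without overlap was not counted.

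By role, 6 of 9 arrest genes were higher with azacytidine and 7 of 9 with decitabine, at medians of 1.10 with azacytidine and 1.11 with decitabine on the log2 scale. Of the 13 death genes, 8 were higher with each drug, and 1 was lower with azacytidine, with medians of 0.85 and 0.88. Of the 5 repair genes, 1 was higher with azacytidine (Ercc5, adjusted p = 0.0424) and 2 with decitabine, and 2 of the 5 lay below 0 with azacytidine. Over all genes tested, 13.6% were higher with azacytidine and 12.4% with decitabine. A count of 1 among 5 genes cannot be told apart from such a share. Of the 6 feedback genes, 3 were higher with each drug. The numbers called without each library in turn were 11 to 16 with azacytidine, lowest without azacytidine replicate 1 (11) and replicate 2 (12), and 14 to 18 with decitabine.

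**Figure D1:**
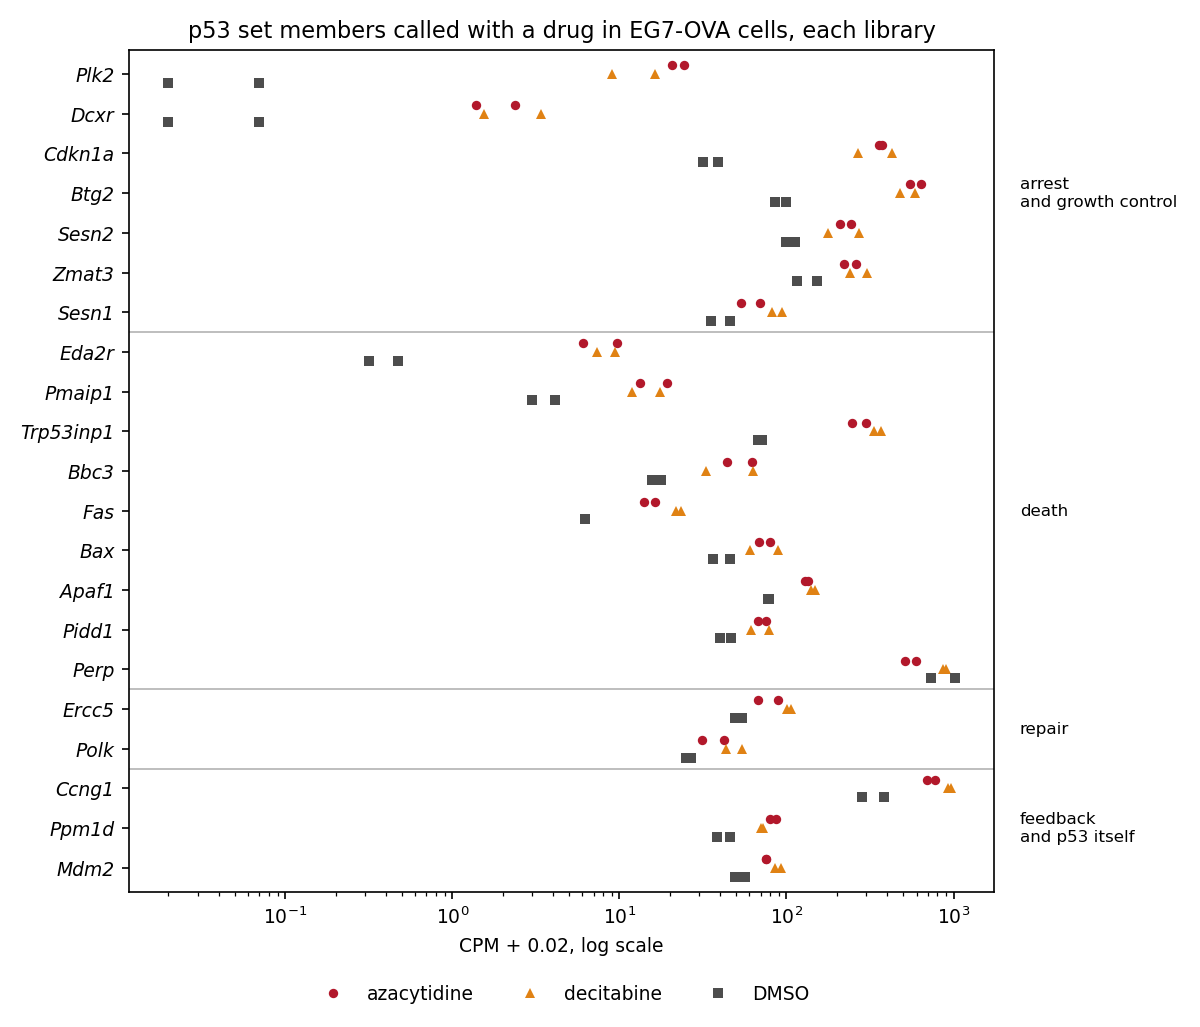
The 21 members called with at least 1 drug in EG7-OVA cells, 1 point per library, on a log axis of CPM plus 0.02, grouped by role, with circles for azacytidine, triangles for decitabine and squares for DMSO (2 libraries each). Plk2, Dcxr and Eda2r sit under 0.5 CPM with DMSO and between 1.37 and 24.2 CPM with the drugs, while the azacytidine points of Perp lie below its DMSO points.

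Arrest genes began with Cdkn1a, which encodes p21, the inhibitor of cyclin-dependent kinases that carries out p53's cell cycle arrest. Cdkn1a (chr17:29090976-29100727, plus strand, mm10) had 375 and 360 CPM with azacytidine, 267 and 430 CPM with decitabine, and 38.7 and 31.4 CPM with DMSO. Every drug library lay far above both DMSO libraries. It rose by a log2 fold change of 3.39 ± 0.25 with azacytidine (adjusted p = 3.23e-05) and 3.31 ± 0.25 with decitabine (adjusted p = 4.54e-05). Of its exon bases, 7.68% overlap the antisense gene AC167363.2, and whether counting used strand is not given in the sources used here.

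Of members with a RefSeq promoter window, those with a match to the p53 response element are shown next, because this element is how p53 finds its targets. The windows run from 250 bases before to 50 after a transcription start on GRCm38.p6 and were matched for 25 of the 33 members, all but Trp53inp1, Pmaip1, Zmat3, Tnfrsf10b, Perp, Ddb2, Xpc and Rrm2b. The capitals mark the 10-base units of the element, which is named here rather than spelled, was searched on both strands, and consists of a pair of such units up to 13 bases apart.
Cdkn1a, chr17:29090906-29090937, plus strand, 0 mismatches: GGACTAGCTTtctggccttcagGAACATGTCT
Ccng1, chr11:40755462-40755481, minus strand, 1 mismatch: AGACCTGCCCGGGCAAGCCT
Bax, chr7:45467090-45467114, minus strand, 2 mismatches: TGACAAGCATatcccAGGCAAGCTT
Gadd45a, chr6:67037438-67037468, minus strand, 2 mismatches: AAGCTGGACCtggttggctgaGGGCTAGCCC
Rps27l, chr9:66946296-66946315, plus strand, 1 mismatch: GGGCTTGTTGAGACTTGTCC
Sesn1, chr10:41887253-41887275, plus strand, 2 mismatches: GCGCTTGGCCttcAAGCTTGTTT

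The Cdkn1a match spans positions -73 to -42 from the start of its own window's transcript. It lies in the first window of the gene. A second window, for another start (chr17:29093519-29093818), held 0 units without a mismatch and 0 full elements. The matches of Rps27l and Sesn1 lie in a second window of the gene. Each window shown held 2 matches with up to 2 mismatches. The 1 printed has the fewest mismatches or is the first among equals, and the gap between its units did not count. For Cdkn1a the other match pairs the second unit shown with the bases right after it, with no gap and 1 mismatch. Which match p53 would use was not tested. In the first window of each gene, a full element with no mismatch was present in 1 of 25 members (4%) and in 0.0592% of 27025 genes with a window, and one with up to 2 mismatches in 4 of 25 (16%) and 4.03%. At least 1 unit with no mismatch was present in 10 of 25 members (40%) and 8.37% of all genes. The units, the full element and its mismatched form overlap one another by construction. A match describes letters in the window and not binding, and no binding was measured.

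Plk2, a polo-like kinase of the centrosome cycle and stress arrest, was nearly undetected with DMSO and well detected with both drugs. Plk2 had 24.2 and 20.6 CPM with azacytidine, 9.02 and 16.3 CPM with decitabine, and 0 and 0.0498 CPM with DMSO. These stand for 716 reads with azacytidine, 476 with decitabine and 1 read in the DMSO libraries, a ratio of 892 with azacytidine (95% interval 160 to 35274, exact binomial) and 502 with decitabine (89.6 to 19856). Such intervals cover counting error only. The call held with both drugs (adjusted p = 2.31e-05 with azacytidine and 4.54e-05 with decitabine).

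Dcxr, a carbonyl and xylulose reductase placed in this group, was also near absent with DMSO. It had 2.35 and 1.37 CPM with azacytidine, 1.53 and 3.39 CPM with decitabine, and 0 and 0.0498 CPM with DMSO. Its 59 reads with azacytidine and 92 with decitabine, against 1 read with DMSO, gave ratios of 73.5 with azacytidine (12.7 to 2951) and 97 with decitabine (17 to 3871). The levels stayed low, and both calls passed (adjusted p = 0.00177 with azacytidine and 0.00135 with decitabine).

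Eda2r, the ectodysplasin-A2 receptor of the tumour necrosis factor receptor family, was the third member under 0.5 CPM in both DMSO libraries and called with both drugs. It had 6.01 and 9.72 CPM with azacytidine, 7.29 and 9.45 CPM with decitabine, and 0.452 and 0.299 CPM with DMSO. It rose by 4.36 ± 0.45 with azacytidine (adjusted p = 0.000195) and 4.45 ± 0.45 with decitabine (adjusted p = 0.00023).

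The promoter windows of these 3 nearly silent members are shown because the drugs act on the methylation of CpG dinucleotides, which the capitals mark. DNA methylation itself was not measured here.
Plk2, chr13:110394794-110395093, plus strand: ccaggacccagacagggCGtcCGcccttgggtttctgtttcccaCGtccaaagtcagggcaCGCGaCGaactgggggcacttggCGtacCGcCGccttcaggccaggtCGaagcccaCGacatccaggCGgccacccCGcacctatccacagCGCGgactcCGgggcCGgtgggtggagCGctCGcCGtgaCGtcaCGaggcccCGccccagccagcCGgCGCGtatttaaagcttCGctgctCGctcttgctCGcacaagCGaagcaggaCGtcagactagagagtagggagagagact
Dcxr, chr11:120727235-120727534, minus strand: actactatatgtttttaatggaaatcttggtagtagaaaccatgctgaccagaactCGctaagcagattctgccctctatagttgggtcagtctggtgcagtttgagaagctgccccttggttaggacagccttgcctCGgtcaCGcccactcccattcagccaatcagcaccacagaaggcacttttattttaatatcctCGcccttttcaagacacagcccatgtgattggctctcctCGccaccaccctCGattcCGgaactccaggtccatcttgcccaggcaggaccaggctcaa
Eda2r, chrX:97377160-97377459, minus strand: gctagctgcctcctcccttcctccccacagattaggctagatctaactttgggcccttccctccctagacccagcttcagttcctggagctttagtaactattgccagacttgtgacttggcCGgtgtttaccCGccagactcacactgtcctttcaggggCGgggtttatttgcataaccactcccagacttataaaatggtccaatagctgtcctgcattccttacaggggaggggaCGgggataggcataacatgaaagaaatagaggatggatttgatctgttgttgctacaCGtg

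The Plk2 window is rich in CpG, with 31 of them and 0.941 of the number its base composition predicts. The Dcxr window holds 7 CpG (0.378) and the Eda2r window 5 (0.264), so the 3 windows do not share a CpG content. Over the 25 members with a window the median observed over expected CpG was 0.721, against 0.389 over all 27025 genes. A ratio of 0.6 or more was found in 68% of members and 36.5% of all genes.

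Btg2, an antiproliferative cofactor of mRNA decay, had the highest level per kilobase of exon among arrest genes with either drug. Btg2 had 634 and 545 CPM with azacytidine, 476 and 585 CPM with decitabine, and 85.8 and 98.6 CPM with DMSO. It rose by 2.68 ± 0.19 with azacytidine (adjusted p = 2.77e-05) and 2.52 ± 0.19 with decitabine (adjusted p = 4.57e-05), and the drug and DMSO libraries were far apart.

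Sesn2 and Sesn1 encode sestrins, which restrain the growth kinase mTORC1. Sesn2 had 245 and 208 CPM with azacytidine, 177 and 270 CPM with decitabine, and 99.6 and 112 CPM with DMSO (1.10 ± 0.22 with azacytidine, adjusted p = 0.00603, and 1.08 ± 0.22 with decitabine, adjusted p = 0.00781). Sesn1 had 53.1 and 69.6 CPM with azacytidine, 82.2 and 94.4 CPM with decitabine, and 46.2 and 35.5 CPM with DMSO. Sesn1 passed with decitabine (1.11 ± 0.20, adjusted p = 0.00506) and not with azacytidine (0.59 ± 0.20, adjusted p = 0.0682), where it passed with no filter (adjusted p = 0.0356). Zmat3, an RNA-binding regulator of splicing, had 220 and 260 CPM with azacytidine, 239 and 304 CPM with decitabine, and 153 and 116 CPM with DMSO (0.83 ± 0.20 with azacytidine, adjusted p = 0.0154, and 1.01 ± 0.20 with decitabine, adjusted p = 0.00747). Sesn2 missed the threshold without azacytidine replicate 1 (adjusted p = 0.0644) or decitabine replicate 2 (0.0735). Zmat3 missed it with azacytidine without DMSO replicate 2 (0.0878), azacytidine replicate 1 (0.0636) or replicate 2 (0.139), and with decitabine without decitabine replicate 2 (0.075).

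Plk3 and Gadd45a, a stress kinase and a growth arrest gene induced by DNA damage, did not pass with either drug. Plk3 had 75.9 and 65.6 CPM with azacytidine, 60 and 105 CPM with decitabine, and 80.2 and 56.4 CPM with DMSO. Gadd45a had 21.5 and 16.4 CPM with azacytidine, 32.3 and 28 CPM with decitabine, and 16.3 and 32.5 CPM with DMSO. In both genes the DMSO libraries were far apart and overlapped the drug libraries.

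Among death genes, those of the mitochondrial route to apoptosis were higher with both drugs. Bbc3 and Pmaip1 encode PUMA and NOXA, small proteins that free Bax to open the mitochondrial membrane, and Apaf1 builds the caspase-activating apoptosome. Pmaip1 had 19.3 and 13.3 CPM with azacytidine, 17.6 and 11.8 CPM with decitabine, and 2.97 and 4.09 CPM with DMSO (2.21 ± 0.34 with azacytidine, adjusted p = 0.00167, and 2.06 ± 0.34 with decitabine, adjusted p = 0.00283). Bbc3 had 62.3 and 44.2 CPM with azacytidine, 33.1 and 63.1 CPM with decitabine, and 15.6 and 17.6 CPM with DMSO (1.68 ± 0.30 with azacytidine, adjusted p = 0.0038, and 1.53 ± 0.30 with decitabine, adjusted p = 0.0071). No drug library of either gene fell to the DMSO levels.

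The effectors Bax and Apaf1 were higher too. Bax had 79.8 and 68 CPM with azacytidine, 60.2 and 89.3 CPM with decitabine, and 45.7 and 36.5 CPM with DMSO (0.85 ± 0.22 with azacytidine, adjusted p = 0.0225, and 0.86 ± 0.22 with decitabine, adjusted p = 0.0242). Of its exon bases, 12.2% overlap the same-strand gene Gm45808, so its counts are uncertain to that extent. Apaf1 had 128 and 135 CPM with azacytidine, 140 and 148 CPM with decitabine, and 79 and 77 CPM with DMSO (0.76 ± 0.15 with azacytidine, adjusted p = 0.00686, and 0.88 ± 0.15 with decitabine, adjusted p = 0.00385). The calls for Bax were lost with azacytidine without azacytidine replicate 1 (adjusted p = 0.177), replicate 2 (0.0699) or DMSO replicate 2 (0.112), and with decitabine without DMSO replicate 2 (0.114) or decitabine replicate 2 (0.225). Apaf1 was lost without azacytidine replicate 1 (0.057) or 2 (0.0686), and Bbc3 without decitabine replicate 2 (0.0533).

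The other death genes that passed with both drugs were Fas, Trp53inp1, Pidd1 and Eda2r, described above. Fas, the death receptor that ends T cell responses, had 14 and 16.2 CPM with azacytidine, 21.9 and 23.3 CPM with decitabine, and 6.18 and 6.18 CPM with DMSO (1.29 ± 0.24 with azacytidine, adjusted p = 0.00475, and 1.87 ± 0.24 with decitabine, adjusted p = 0.0008). Trp53inp1, whose product helps p53 switch on death genes, had 248 and 300 CPM with azacytidine, 334 and 368 CPM with decitabine, and 67.3 and 71.6 CPM with DMSO (1.98 ± 0.17 with azacytidine, adjusted p = 8.52e-05, and 2.34 ± 0.18 with decitabine, adjusted p = 4.54e-05). Pidd1, a scaffold that activates caspase-2, had 67.5 and 74.9 CPM with azacytidine, 60.9 and 79 CPM with decitabine, and 46.6 and 40.2 CPM with DMSO (0.71 ± 0.19 with azacytidine, adjusted p = 0.0229, and 0.69 ± 0.19 with decitabine, adjusted p = 0.0312). In these genes too every drug library lay above every DMSO library. Without azacytidine replicate 1, azacytidine replicate 2 or DMSO replicate 2, Pidd1 missed the threshold with azacytidine (adjusted p = 0.0956, 0.155 and 0.129). It also missed it with decitabine without DMSO replicate 1, DMSO replicate 2 or decitabine replicate 2 (0.0637, 0.157 and 0.25), and in the fit of the 4 decitabine and DMSO libraries (0.061).

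Perp, a membrane protein gene that p53 uses in apoptosis and that also serves in cell junctions, was the member with a lower level. Perp had 595 and 512 CPM with azacytidine, 898 and 860 CPM with decitabine, and 1015 and 730 CPM with DMSO. It fell by 0.66 on the log2 scale with azacytidine (SE 0.20, adjusted p = 0.0413) and stood at 0.011 ± 0.20 with decitabine (adjusted p = 0.978). The call was lost without azacytidine replicate 1 (adjusted p = 0.128), azacytidine replicate 2 (0.217) or DMSO replicate 1 (0.209), where the log2 fold change was -0.80, -0.59 and -0.42, and in the fit of the 4 azacytidine and DMSO libraries (-0.68, adjusted p = 0.0644).

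The other 4 death genes did not pass with either drug. Tnfrsf10b, the TRAIL receptor, stood at 0.36 ± 0.28 with azacytidine and 0.76 ± 0.28 with decitabine. Ei24, an endoplasmic reticulum protein, stood at 0.46 ± 0.17 with azacytidine and 0.51 ± 0.17 with decitabine, and passed with decitabine under the stricter filter (adjusted p = 0.0447). Aen, an apoptosis-enhancing nuclease, was at 0.41 ± 0.25 with azacytidine and 0.42 ± 0.25 with decitabine. Phlda3, which restrains the survival kinase Akt, had 4.12 and 1.79 CPM with azacytidine, 0.867 and 1.31 CPM with decitabine, and 0 and 0.847 CPM with DMSO, 17 reads in all with DMSO. With azacytidine it passed by DESeq2 (adjusted p = 0.0408), with no filter (2.16e-05) and with the stricter filter (0.0498). Without DMSO replicate 2, the DMSO library that held all 17 reads, it passed with both drugs (adjusted p = 0.000925 with azacytidine and 0.00648 with decitabine).

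Of the repair genes, Ercc5 passed with both drugs and Polk with decitabine. Ercc5, the nuclease that cuts beside bulky damage in nucleotide excision repair, had 67.8 and 88.9 CPM with azacytidine, 100 and 107 CPM with decitabine, and 54.2 and 49.4 CPM with DMSO (0.60 ± 0.18 with azacytidine, adjusted p = 0.0424, and 1.00 ± 0.18 with decitabine, adjusted p = 0.00487). Polk, a polymerase that copies past damaged bases, had 31.4 and 42.3 CPM with azacytidine, 53.8 and 43.7 CPM with decitabine, and 25.1 and 26.7 CPM with DMSO. It passed with decitabine (0.91 ± 0.21, adjusted p = 0.0146) and stood at 0.51 ± 0.21 with azacytidine (adjusted p = 0.116). The azacytidine call of Ercc5 was lost without any 1 of its 4 libraries (adjusted p = 0.0665 without azacytidine replicate 1, 0.338 without replicate 2, 0.105 without DMSO replicate 1 and 0.189 without replicate 2), and in the fit of those 4 libraries (0.06). Polk was lost without DMSO replicate 1 (0.0786) or decitabine replicate 1 (0.0968).

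The damage recognition genes Xpc and Ddb2 and the ribonucleotide reductase gene Rrm2b, which supplies nucleotides for repair, did not pass with either drug. Xpc stood at 0.22 ± 0.21 with azacytidine and 0.06 ± 0.21 with decitabine, and Rrm2b at -0.21 ± 0.22 with azacytidine and 0.12 ± 0.22 with decitabine. Ddb2 had 14.1 and 21.5 CPM with azacytidine, 17.8 and 18.6 CPM with decitabine, and 24.8 and 27.3 CPM with DMSO (-0.55 ± 0.25 with azacytidine, adjusted p = 0.149, and -0.51 ± 0.25 with decitabine, adjusted p = 0.193). Of the Ddb2 exon bases, 23.8% overlap Acp2 on the other strand, and of Rrm2b 8.04% overlap Gm49085.

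Trp53 RNA itself did not pass. Trp53 (chr11:69580359-69591873, plus strand, mm10) had 152 and 117 CPM with azacytidine, 131 and 133 CPM with decitabine, and 145 and 131 CPM with DMSO, and the groups overlapped. The log2 fold change was -0.033 with azacytidine (95% interval -0.42 to 0.36, adjusted p = 0.922) and -0.064 with decitabine (-0.45 to 0.33, adjusted p = 0.853). The protein and its modifications, through which p53 is known to be controlled, were not measured.

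Among the genes that restrain p53, 3 rose with both drugs. Ccng1, cyclin G1, which brings a phosphatase to Mdm2, had 698 and 773 CPM with azacytidine, 922 and 969 CPM with decitabine, and 385 and 283 CPM with DMSO (1.14 ± 0.19 with azacytidine, adjusted p = 0.00278, and 1.50 ± 0.19 with decitabine, adjusted p = 0.000777). Ppm1d, the phosphatase WIP1 that removes activating marks from p53, had 79.1 and 86.1 CPM with azacytidine, 70.7 and 72.3 CPM with decitabine, and 46 and 38.2 CPM with DMSO (0.97 ± 0.17 with azacytidine, adjusted p = 0.00333, and 0.76 ± 0.17 with decitabine, adjusted p = 0.0128). Mdm2, the ubiquitin ligase of p53, had 75.5 and 75.5 CPM with azacytidine, 92.6 and 85.9 CPM with decitabine, and 56.6 and 49 CPM with DMSO (0.52 ± 0.16 with azacytidine, adjusted p = 0.0497, and 0.76 ± 0.16 with decitabine, adjusted p = 0.0113). All drug libraries of the 3 genes lay above their DMSO libraries.

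The azacytidine call of Mdm2 was lost without any 1 of its 4 libraries (adjusted p = 0.102 to 0.287), with median-ratio scaling, with no filter, and with only the 4 libraries fitted. With decitabine Mdm2 was lost without DMSO replicate 2 (0.0851) or decitabine replicate 1 (0.0672), and Ppm1d without decitabine replicate 1 (0.0515), decitabine replicate 2 (0.0742) or DMSO replicate 2 (0.0965). Mdm4, the partner of Mdm2 that masks p53, had 309 and 433 CPM with azacytidine, 559 and 534 CPM with decitabine, and 414 and 397 CPM with DMSO (-0.13 ± 0.19 with azacytidine, adjusted p = 0.691, and 0.43 ± 0.19 with decitabine, adjusted p = 0.161). Rps27l, a ribosomal protein relative that binds Mdm2, stood at -0.38 ± 0.18 with azacytidine (adjusted p = 0.178) and -0.06 ± 0.18 with decitabine (adjusted p = 0.867).

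**Figure D2:**
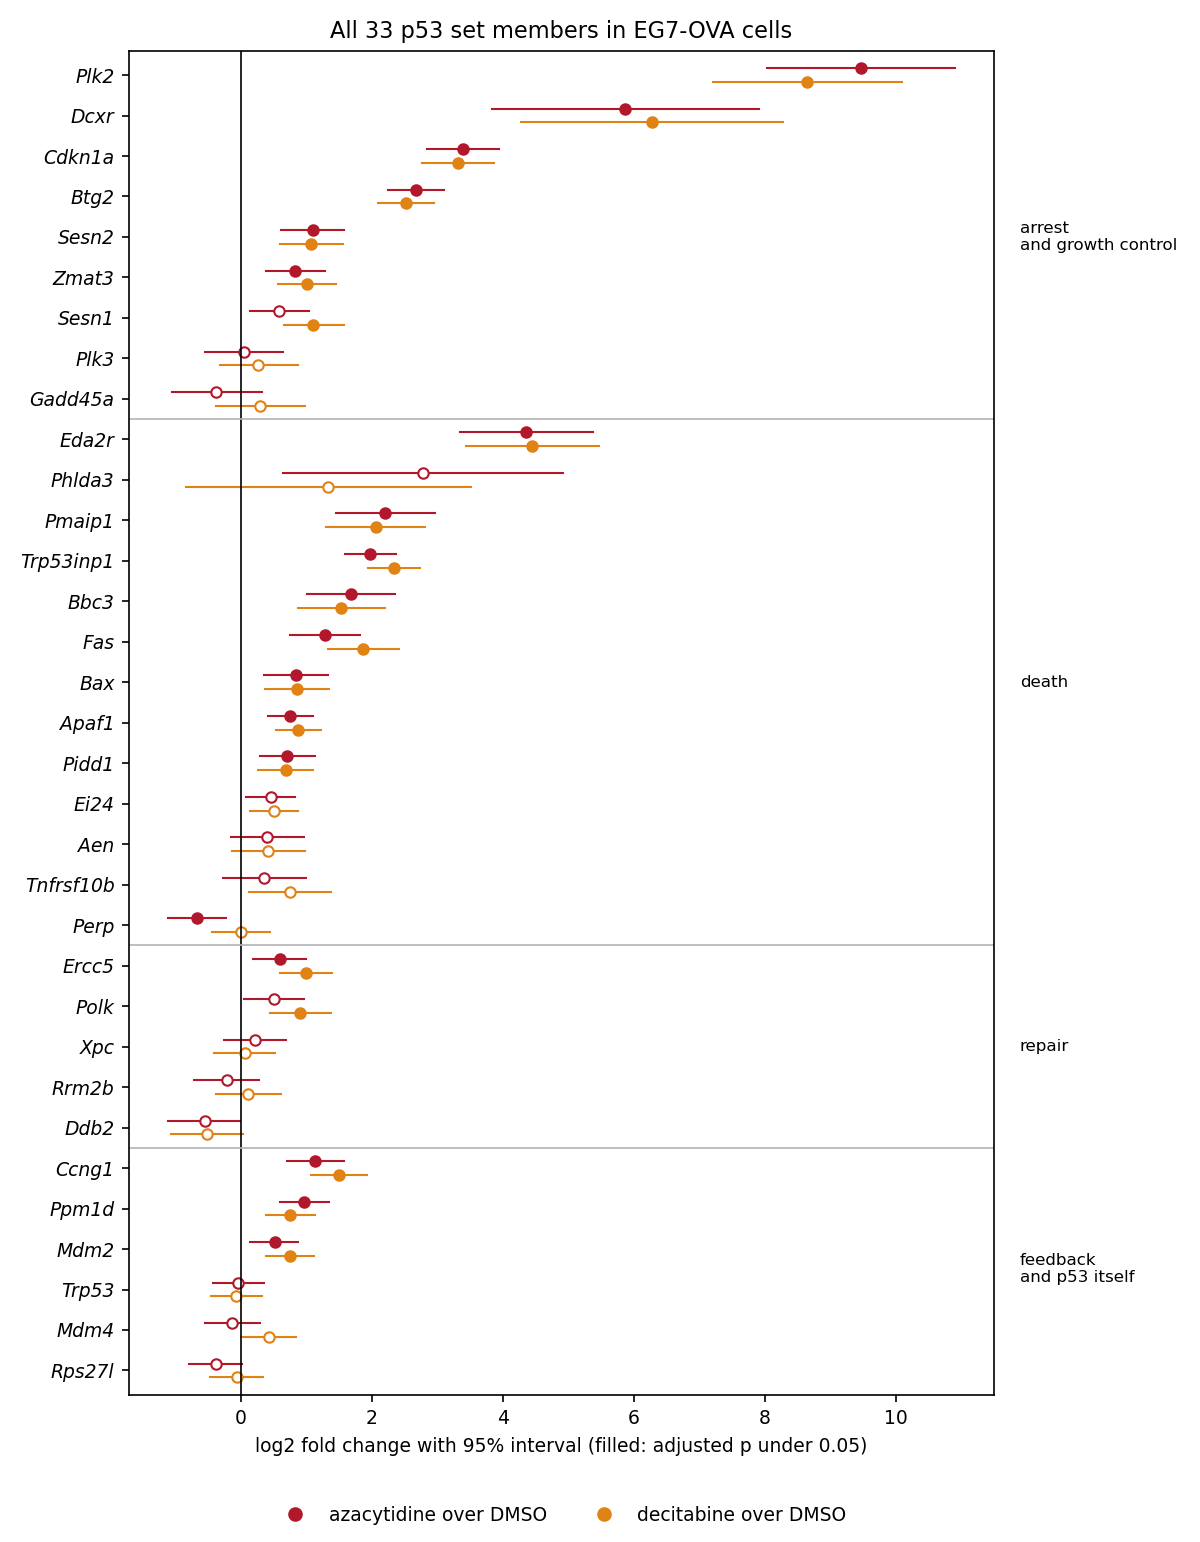
Log2 fold change of all 33 members in EG7-OVA cells, azacytidine over DMSO and decitabine over DMSO, with 95% intervals from the edgeR fit (2 libraries a group), filled where the adjusted p was under 0.05 and grouped by role. Values run from -0.66 for Perp with azacytidine to 9.46 for Plk2 with azacytidine, and the fitted values of Plk2 and Dcxr rest on 1 DMSO read each and depend on the prior count.

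Azacytidine and decitabine differ by a hydroxyl group on the sugar, ribose in azacytidine and deoxyribose in decitabine. At the doses used, 1.5 µM azacytidine and 0.2 µM decitabine, 0 of 33 members passed in either direction by edgeR when the drugs were compared with each other (adjusted over all genes), 0 passed by DESeq2, and 6 had an unadjusted p under 0.05. Over all genes the share called was 0% higher and 0% lower by edgeR, while DESeq2 called 37 genes higher and 138 lower with azacytidine. A p that misses the threshold does not show that the drugs act alike, and dose and drug cannot be told apart here. The median difference of the members was -0.12 on the log2 scale, beside 0.00385 over all genes, with 22 of 33 below 0. How many of all genes lay below 0 or had an unadjusted p under 0.05 was not counted. The counts of 22 and 6 thus have no background to be read against.

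The intervals set limits on how far the drugs could differ at these doses. Cdkn1a differed by 0.075 between azacytidine and decitabine (95% interval -0.42 to 0.57), Bax by -0.015 (-0.50 to 0.47) and Trp53 by 0.031 (-0.36 to 0.42). The 6 members at an unadjusted p under 0.05 were Plk2, Perp, Mdm4, Sesn1, Fas and Ercc5. Plk2, from the library values given above, was at 0.82 (0.049 to 1.59, adjusted p = 0.74), the one of the 6 with the higher level under azacytidine. Perp was at -0.67 (-1.11 to -0.23, adjusted p = 0.427), Mdm4 at -0.56 (-0.98 to -0.13, adjusted p = 0.564) and Fas at -0.58 (-1.10 to -0.063, adjusted p = 0.69). The libraries of the drugs did not overlap in any of the 6, which was so for 17 of the 33 members. The share over all genes was not counted. Sesn1 was at -0.52 (-0.97 to -0.076) and Ercc5 at -0.40 (-0.80 to -0.0029).

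The order of the members by level changed with the drugs. Per kilobase of exon, mean CPM with DMSO was highest for Perp (447), Rps27l (168) and Ccng1 (95.1), and Cdkn1a (9.87) was in place 18 of 33. Trp53 (34, range 32.3 to 35.7) and Btg2 (33.6, range 31.3 to 36) came next with DMSO and overlapped, as did Btg2 and Sesn2 (28.7 to 32.1). With azacytidine the order of mean CPM per kilobase was Perp (284), Btg2 (215), Ccng1 (209), Rps27l (129) and Cdkn1a (103), and Btg2 and Ccng1 overlapped between libraries. With decitabine it was Perp (450), Ccng1 (269), Btg2 (193), Rps27l (161) and Cdkn1a (98.2). By mean, Cdkn1a stood in place 5 with each drug, with libraries that overlapped those of Sesn2 in place 6 with decitabine, and Perp headed the list in all 3 groups.

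Other genes of the pathway were taken from 3 further lists. Beside them, 13.6% of all genes tested were higher and 6.7% lower with azacytidine, and 12.4% were higher and 4.3% lower with decitabine. Of 29 upstream kinases and regulators tested, 3 were higher and 8 lower with azacytidine (median -0.28 on the log2 scale) and 3 higher and 6 lower with decitabine (median -0.27). Chek1, the checkpoint kinase of stalled replication, had 25.1 and 27.7 CPM with azacytidine, 32.1 and 22.1 CPM with decitabine, and 59.6 and 51.9 CPM with DMSO (-1.08 ± 0.22 with azacytidine, adjusted p = 0.00677, and -1.04 ± 0.22 with decitabine, adjusted p = 0.00952). With azacytidine Atr, the kinase above it, fell by 1.06 on the log2 scale and Ep300, an acetyltransferase of p53, rose by 0.81. With decitabine the damage histone gene H2ax fell by 1.12 and the p53 deubiquitinase gene Usp10 fell by 0.85. The 11 calls with azacytidine came to 1 without azacytidine replicate 1, and to 4 without azacytidine replicate 2 or DMSO replicate 1. The 9 with decitabine came to 1 without decitabine replicate 2 and 4 without DMSO replicate 1.

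Of 61 further reported p53 targets tested, 23 were higher and 2 lower with azacytidine (median 0.64), and 23 were higher and 1 lower with decitabine (median 0.59). Tob1, an antiproliferative relative of Btg2, had 166 and 138 CPM with azacytidine, 169 and 174 CPM with decitabine, and 45.7 and 42.5 CPM with DMSO (1.78 ± 0.17 with azacytidine, adjusted p = 0.000119, and 1.96 ± 0.17 with decitabine, adjusted p = 9.23e-05). Ak1, adenylate kinase, rose by 3.02 with azacytidine and 3.17 with decitabine, and Gdf15, a stress cytokine, by 4.55 with decitabine. Epha2, an ephrin receptor, held 316 reads with azacytidine against 2 with DMSO, a ratio of 197 (54 to 1632). The 25 calls with azacytidine came to 8 without azacytidine replicate 1 and 15 without replicate 2. The 24 with decitabine came to 13 without decitabine replicate 2 and 15 without DMSO replicate 1.

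Genes that p21 is known to shut through the DREAM repressor complex, mostly of mitosis and DNA replication, were lower in the majority. Of 24 such genes, 0 were higher and 18 lower with each drug by edgeR, with medians of -0.76 with azacytidine and -0.77 with decitabine, and 0 were higher at an unadjusted p under 0.05 or by DESeq2. Summed over the list, levels were 2401 and 2238 CPM with azacytidine, 2520 and 2043 CPM with decitabine, and 4170 and 3446 CPM with DMSO. Prc1, a spindle midzone protein, had 42.1 and 48.9 CPM with azacytidine, 49.9 and 45 CPM with decitabine, and 110 and 99.8 CPM with DMSO (-1.21 ± 0.17 with azacytidine, adjusted p = 0.00107, and -1.15 ± 0.17 with decitabine, adjusted p = 0.00167). The mitotic kinase genes Nek2 and Bub1 fell by 1.32 and 1.29 on the log2 scale with azacytidine. The phosphatase gene Cdc25c and the replication helicase gene Mcm5 fell by 1.12 and 1.13 with decitabine. The 18 calls with azacytidine came to 8 without azacytidine replicate 1, 6 without replicate 2 and 8 without DMSO replicate 1. The 18 with decitabine came to 3 without decitabine replicate 2 and 5 without DMSO replicate 1.

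**Figure D3:**
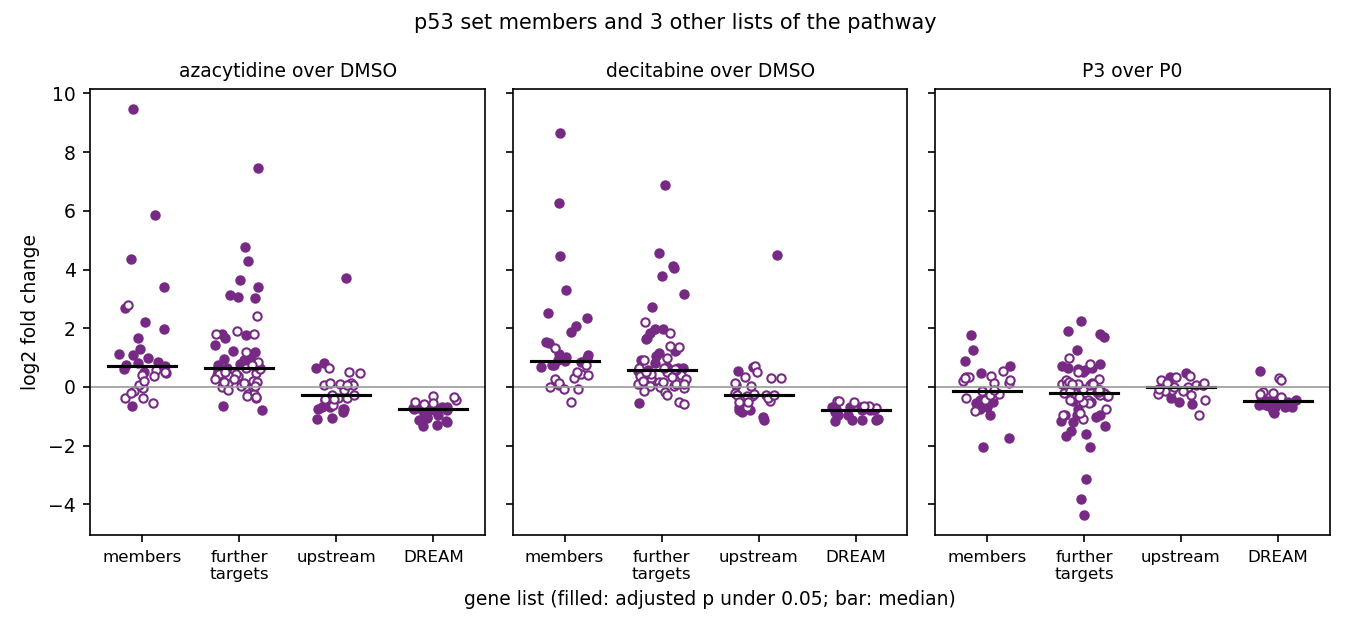
Log2 fold change of each gene tested in the member list and in 3 other lists of the pathway, in panels for azacytidine over DMSO, decitabine over DMSO and P3 over P0, filled where the adjusted p was under 0.05, with a bar at the median of each list. The member medians are 0.71, 0.88 and -0.15, and those of the DREAM list are -0.76, -0.77 and -0.47.

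In EL4 tumours the p53 set moved both ways. Between P3 and P0, 5 of 33 members were higher and 9 lower in P3, against 18.8% higher and 19.9% lower over all 19993 genes tested. The 14 called thus stand near the background share, and the member median was -0.15 beside -0.00186 over all genes. Death genes were split 0 higher and 5 lower of 13, repair genes 2 higher and 0 lower of 5, arrest genes 2 and 2 of 9, and feedback genes 1 and 2 of 6. The counts of 0 were also 0 at an unadjusted p under 0.05 and by DESeq2. The P3 and P0 libraries did not overlap in 27 of the 33 members, called or not, and the share over all genes was not counted.

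The tumours also differed in other cells. Macrophage markers summed to 588 and 493 CPM in P3 tumours and 1944 and 2382 CPM in P0, with a read for all 20 in each library. The other lists hold 12 genes each, of which 10 to 12 had a read. Fibroblast markers summed to 2431 and 1734 CPM in P3 tumours and 4517 and 4418 CPM in P0 tumours. These sums include Thy1, which T cells also express (511 and 560 CPM in P3, 864 and 729 CPM in P0), and Pdgfrb, which went the other way (703 and 724 CPM in P3, 348 and 306 CPM in P0). B cell markers summed to 71.6 and 75.7 CPM in P3 tumours and 311 and 530 CPM in P0 tumours, and dendritic cell markers to 82.7 and 92 CPM in P3 tumours and 265 and 297 CPM in P0 tumours. T cell genes gave 5857 and 5922 CPM in P3 and 5982 and 5623 CPM in P0, endothelial markers 422 and 318 CPM in P3 tumours and 411 and 408 CPM in P0 tumours, and neutrophil markers 20.6 and 71.3 CPM in P3 tumours and 9.7 and 12.4 CPM in P0 tumours. Of 10 defining markers, none was at 0 in any tumour library. Small RNA took 0.963% and 1.24% of counts in P3 against 2.14% and 1.87% in P0. The part of these in the results was not tested, and in bulk tissue fewer cells of a type and less RNA per cell cannot be told apart.

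The edgeR calls in the tumours depended on having both P0 libraries, over all genes as well as over the members. Leaving out 1 library leaves 1 in its group, so the spread was then estimated from the other group alone. As a coefficient of variation it was 0.188 in the main fit, 0.285 and 0.284 without P0 replicate 1 or 2, and 0.0879 without either P3 library. The number of calls moved with that estimate over all genes and is no trait of the members. No called member changed sign in any of these fits, which their groups, none of them overlapping, left little room for.

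**Figure D4:**
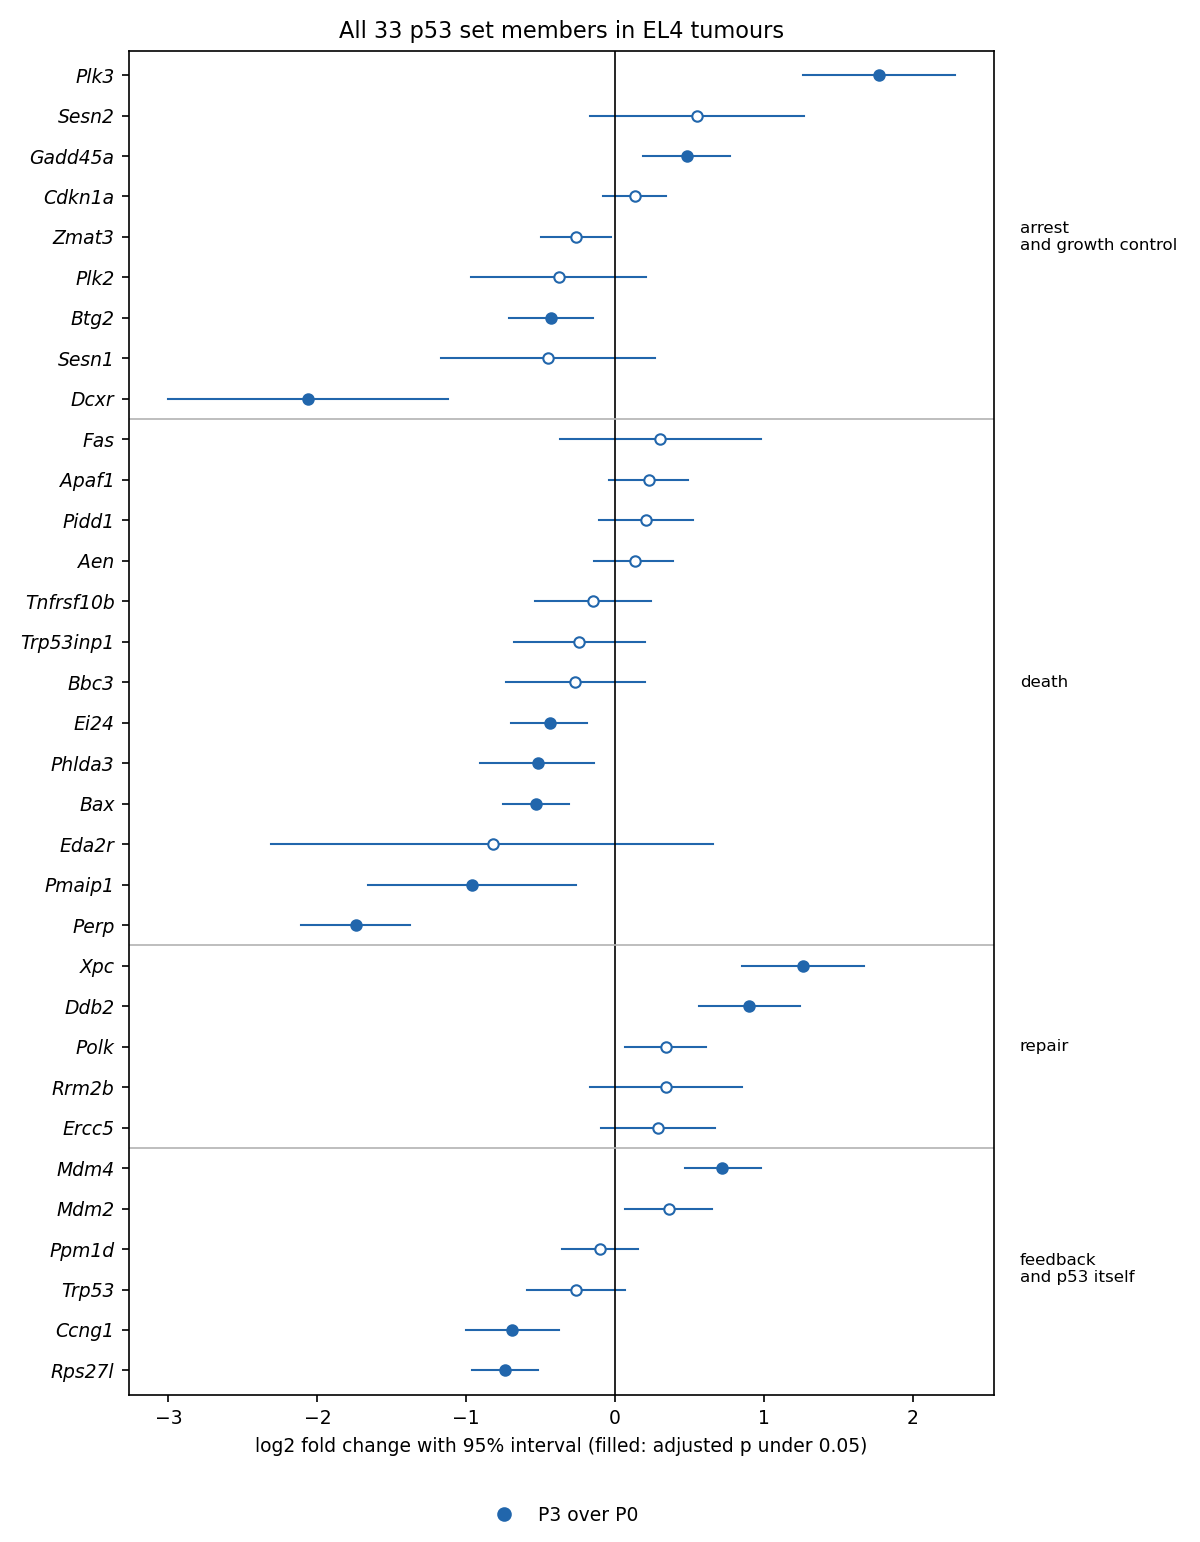
Log2 fold change of all 33 members in EL4 tumours, P3 over P0, with 95% intervals from the edgeR fit (2 libraries a group), filled where the adjusted p was under 0.05 and grouped by role. Values run from -2.06 for Dcxr to 1.77 for Plk3. The 5 repair genes all lie above 0, of which 2 passed, and the share of all genes above 0 was not counted.

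Of arrest genes, Plk3 was the highest relative to P0. It had 60.9 and 41.6 CPM in P3 and 15.9 and 14.1 CPM in P0, a log2 fold change of 1.77 ± 0.21 (adjusted p = 0.00363). Gadd45a had 31.8 and 33.6 CPM in P3 and 22.2 and 24.5 CPM in P0 (0.48 ± 0.12, adjusted p = 0.0257). Of the Gadd45a exon bases, 19.1% overlap E230016M11Rik on the other strand, and of Plk3 3.32% overlap Tctex1d4.

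Btg2 and Dcxr were lower. Btg2 had 63.6 and 55.3 CPM in P3 and 76.3 and 84.1 CPM in P0 (-0.43 ± 0.11, adjusted p = 0.0318). Dcxr had 0.575 and 0.395 CPM in P3 and 1.85 and 2.23 CPM in P0 (-2.06 ± 0.38, adjusted p = 0.0116). Cdkn1a had 80.4 and 82.8 CPM in P3 and 73.8 and 75.2 CPM in P0, and did not pass (0.13 ± 0.085, adjusted p = 0.26). Plk2, with 5.04 and 3.91 CPM in P3 and 5.78 and 5.85 CPM in P0, did not pass either (adjusted p = 0.246), nor did Sesn1, Sesn2 and Zmat3.

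Of death genes, Perp fell the most. Perp had 56.5 and 43.5 CPM in P3 and 161 and 174 CPM in P0, a log2 fold change of -1.74 ± 0.15 (adjusted p = 0.0018). The groups were well apart. Bax had 53.1 and 55.1 CPM in P3 and 79.7 and 77 CPM in P0 (-0.53 ± 0.089, adjusted p = 0.00892). Ei24 had 87.7 and 86.1 CPM in P3 and 110 and 126 CPM in P0 (-0.44 ± 0.10, adjusted p = 0.0218), and 6.66% of its exon bases overlap Gm26787.

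Phlda3 and Pmaip1 lay nearer the threshold. Phlda3 had 27.1 and 21.9 CPM in P3 and 32.4 and 38 CPM in P0 (-0.52 ± 0.15, adjusted p = 0.0447). Pmaip1 had 2.21 and 2.24 CPM in P3 and 3.65 and 5.01 CPM in P0 (-0.96 ± 0.28, adjusted p = 0.044), and missed the threshold by DESeq2 and with no filter. Bbc3, Fas, Apaf1, Trp53inp1, Pidd1, Aen, Tnfrsf10b and Eda2r did not pass, with values between -0.82 for Eda2r and 0.30 for Fas.

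Of repair genes, the pair that recognises damage in excision repair was higher. Xpc had 47.5 and 37.4 CPM in P3 and 16.3 and 19.1 CPM in P0 (1.26 ± 0.16, adjusted p = 0.00471). Ddb2 had 23 and 24.3 CPM in P3 and 12.1 and 13.3 CPM in P0 (0.90 ± 0.14, adjusted p = 0.00713), and shares exon bases with Acp2 as given above. Every P3 library of the pair lay above every P0 library, and groups did not overlap in 27 of the 33 members. Polk (0.34 ± 0.11, adjusted p = 0.0563), Rrm2b (0.34 ± 0.20) and Ercc5 (0.29 ± 0.15) did not pass.

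Of feedback genes, Mdm4 was higher and Ccng1 and Rps27l were lower. Mdm4 had 286 and 256 CPM in P3 and 158 and 170 CPM in P0 (0.72 ± 0.10, adjusted p = 0.00598). Ccng1 had 186 and 177 CPM in P3 and 263 and 323 CPM in P0 (-0.69 ± 0.13, adjusted p = 0.0115). Rps27l had 58.3 and 62.1 CPM in P3 and 99.3 and 102 CPM in P0 (-0.74 ± 0.088, adjusted p = 0.00388). None of the 3 had groups that overlapped, which was so for 27 of the 33 members.

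Trp53 did not pass in the tumours. It had 102 and 121 CPM in P3 and 145 and 123 CPM in P0 (-0.26 ± 0.13, 95% interval -0.59 to 0.066, adjusted p = 0.163). Without P3 replicate 2 it passed (-0.41, adjusted p = 0.00216). Mdm2 had 124 and 106 CPM in P3 and 84.4 and 95.1 CPM in P0 (0.36 ± 0.12, adjusted p = 0.0586), and passed without P3 replicate 1 (0.0477) or P3 replicate 2 (0.000374). Ppm1d was at -0.10 ± 0.10 (adjusted p = 0.447).

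**Figure D5:**
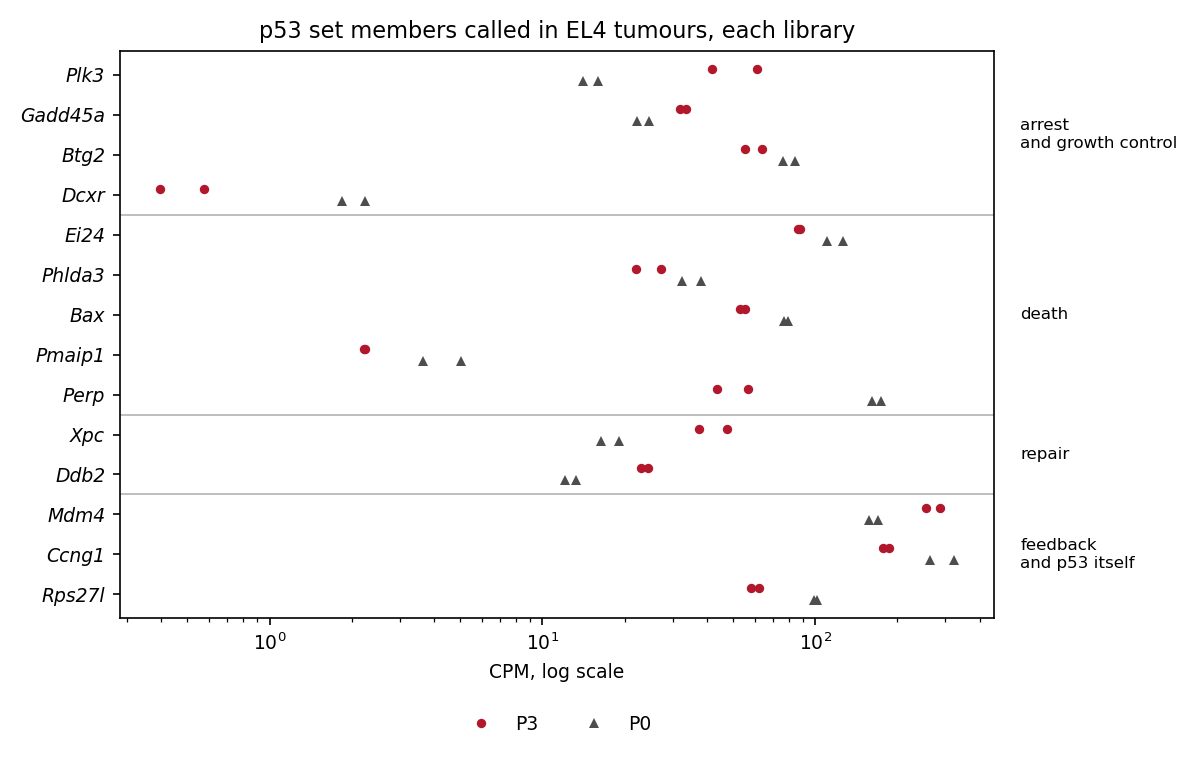
The 14 members called in EL4 tumours, 1 point per library, on a log axis of CPM, grouped by role, with circles for P3 and triangles for P0 (2 libraries each). For each gene both P3 points lie on 1 side of both P0 points, from Dcxr under 3 CPM to Ccng1 and Mdm4 above 150 CPM. That was so for 27 of all 33 members, and the share over all genes was not counted. The 14 were chosen by the test, so their separation is no further support.

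Per kilobase of exon, mean CPM in P3 tumours was highest for Rps27l (73.8), Ccng1 (51.7), Bax (34.3) and Trp53 (27.5). In P0 tumours it was highest for Rps27l (123), Perp (85.8), Ccng1 (83.5) and Bax (49.7), where Perp and Ccng1 overlapped between libraries. By mean, Perp stood in place 5 in P3, where its libraries overlapped those of Trp53, Cdkn1a, Mdm2, Btg2 and Plk3, and in place 2 in P0.

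The 3 other lists of the pathway were also counted in the tumours. Beside them, 18.8% of all genes tested were higher and 19.9% lower in P3, with a median of -0.00186. Of 26 upstream genes tested, 2 were higher and 3 lower in P3 (median 0.0088), among them Chek1 (-0.50 ± 0.10), the nuclear matrix factor gene Banp (-0.59 ± 0.13) and the p53 ubiquitin ligase gene Rchy1 (0.46 ± 0.11). Of 68 further targets, 12 were higher and 21 lower (median -0.20). Ptpn14, a tyrosine phosphatase that restrains YAP, had 3.8 and 2.68 CPM in P3 and 68.2 and 64 CPM in P0 (-4.35 ± 0.19, adjusted p = 0.000459). Ass1, of arginine synthesis, and Sat1, of polyamine breakdown, fell by 1.50 and 1.15 on the log2 scale. Of 24 DREAM genes, 1 was higher and 17 lower (median -0.47), with Ccnb1 at -0.68 ± 0.095 and Cdk1 at -0.57 ± 0.086, genes of mitotic entry. As for the members, the edgeR calls of these 3 lists depended on having both P0 libraries, which held over all genes too.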

How the data were processed

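RNA of 4 EL4 tumours and 6 EG7-OVA cultures was analysed, 2 libraries a group. The EL4 table holds read counts per gene as deposited, and the EG7 table holds estimated counts as deposited by the authors, since 145 values were not whole (0 in the members), and these were rounded. Per the submitters' processing notes the tools were fastp, Trim Galore, STAR and featureCounts, with mm10 for mouse, with neither versions nor a strand setting stated there. The DMSO columns are numbered here only as names.

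Counts were filtered (filterByExpr), scaled by TMM and tested with edgeR 4.0.16 (quasi-likelihood, two-sided) in R 4.3.3, with Benjamini-Hochberg adjustment over all genes tested. EL4 was fitted alone and the 6 EG7 libraries together. The test was checked on simulated data with 100 genes changed at each size. At a log2 change of 1 it recovered 36 for P3 over P0, 18 for azacytidine, 33 for decitabine and 31 between the drugs. At a log2 change of 2 these were 85, 66, 64 and 71. A missed threshold alone thus does not show that a member was unchanged. How large a change remains possible differs by member and is set by its interval from the edgeR fit. For Trp53 with azacytidine the interval was -0.42 to 0.36, which leaves out a log2 change of 1. For Phlda3 with decitabine, a gene with few reads, it was -0.83 to 3.51, which takes in a log2 change of 2. Alternatives were DESeq2 1.42.0, median-ratio scaling, other filters, 4-library fits, a replicate block and leaving out each library. All members are named, and of each other list the 3 genes with the smallest p per comparison, except for a result that is not reported here. The members and lists were chosen with earlier results of these data known. Positions are from GENCODE on mm10. The human NKYS cells were not analysed here.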

Additional observations from a re-analysis of the deposited data

How the results depend on the processing

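No member called in a comparison changed sign under any alternative. The groups of each called member did not overlap, so leaving out 1 library could hardly turn its sign. The lack of a sign change is thus no further support. Of 19 called with azacytidine 11 passed under every alternative, and of 20 with decitabine 12. For the 14 called in the tumours such a count says nothing about the members. The edgeR fits without a P0 library lost the calls over all genes. Leaving out 1 library gave 0 to 22 calls for P3 over P0, 11 to 16 for azacytidine over DMSO, 14 to 18 for decitabine over DMSO and 0 to 0 for azacytidine over decitabine. DESeq2 fits of the tumours with 1 library left out, added once the data had been seen, gave 5 and 4 calls without P0 replicate 1 and 2, and 15 and 12 without P3 replicate 1 and 2. The replicate block gave 9 members called in the tumours and 1 between the drugs (Perp, log2 fold change -0.68, adjusted p = 0.0286), and over all genes it called 232 higher and 381 lower between the drugs. The labels give no shared culture or day, so the block pairs libraries by number alone. Same-numbered libraries deviated with r = -0.0864 across 19993 genes in the tumours and 0.25 across 19123 genes between the drugs. No paired analysis was possible for either drug against DMSO because the DMSO columns could not be tied to numbered samples. Between the drugs, all genes called with no filter were 112 higher and 266 lower. With decitabine, Perp was -0.024 with median-ratio scaling, -0.033 by DESeq2 and -0.0045 in the 4-library fit. Between the drugs, Bax was 0.0048 with median-ratio scaling and 0.0066 by DESeq2, and Aen was 0.0065 with median-ratio scaling, 0.0073 by DESeq2 and 0.0073 with the replicate block. Members not called changed sign when 1 library was left out. For P3 over P0, the ranges were Fas -0.11 to 0.62. For azacytidine over DMSO, the ranges were Trp53 -0.27 to 0.11, Plk3 -0.23 to 0.31, Mdm4 -0.43 to 0.062, Gadd45a -0.8 to 0.17, Xpc -0.046 to 0.39. For decitabine over DMSO, the ranges were Plk3 -0.21 to 0.58, Gadd45a -0.12 to 0.84, Perp -0.25 to 0.26, Xpc -0.032 to 0.1, Rrm2b -0.11 to 0.34, Rps27l -0.3 to 0.16. For azacytidine over decitabine, the ranges were Trp53 -0.18 to 0.2, Cdkn1a -0.22 to 0.45, Plk3 -0.57 to 0.22, Bax -0.26 to 0.28, Bbc3 -0.24 to 0.67, Pmaip1 -0.15 to 0.48, Dcxr -0.86 to 0.27, Sesn2 -0.25 to 0.34, Eda2r -0.49 to 0.21, Aen -0.31 to 0.36, Ei24 -0.14 to 0.0039, Ddb2 -0.39 to 0.23, Xpc -0.082 to 0.35, Pidd1 -0.14 to 0.21. The cause was not tested. With 2 libraries a group, and 1 to 17 DMSO reads for Plk2, Dcxr, Eda2r and Phlda3, depth limits the size of those changes.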
